A study of Mus musculus with 4 samples.

Results

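Transcripts of the autophagy and lysosome machinery were examined in mouse mammary tumor cell lines with and without the JNK genes. The members were a list of 35 genes matched by symbol to the expression table, of which 34 were found among 38713 genes, and the LC3 gene Map1lc3b was not analysed here. All 34 passed the filter on low values, which kept genes that reached 1 FPKM in 2 or more of the 4 libraries, and so belonged to the 12998 genes tested. FPKM is the number of mapped fragments divided by transcript length and by library size, so levels of different genes are compared per length.

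JNK_WT lines (n = 2, replicates 1 and 2) were grown from tumors of Wap-Cre Trp53 LoxP/LoxP mice and carry the label p53-/-. JNK_KO lines (n = 2, replicates 1 and 3) came from mice that also bore Mapk8 LoxP/LoxP and Mapk9 LoxP/LoxP, the genes for JNK1 and JNK2, and are labelled p53-/- JNK-/-. Both groups thus share the loss of Trp53, the Wap-Cre transgene and the C57BL/6 strain. Wap-Cre is active in lactating mammary epithelium, the mice were parous, and an age was not given for the animals behind these lines. Each line was cultured from collagenase-dispersed tumor, received no treatment and gave 1 library. The labels do not say whether the tumors came from separate mice, so p-values measure only the spread between these lines.

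Autophagy encloses cytoplasm in a double membrane, the autophagosome, and delivers it to the lysosome for breakdown. ULK kinases start the process, a lipid kinase complex built on Becn1 and Pik3c3 marks the membrane, and conjugating enzymes attach ATG8 proteins (LC3 and GABARAP) that hold cargo receptors. JNK can free Becn1 from Bcl2, and in neurons loss of JNK has been linked to FoxO-dependent autophagy. The transcription factors Tfeb and Tfe3 act on many lysosomal genes. The comparison of JNK_KO with JNK_WT lines shows where the transcripts of these parts stood.

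The libraries had similar upper quartiles, from 33.2 to 34.3 FPKM over the tested genes. Relative depth, read from the steps of low values, ranged from 1 in JNK_KO replicate 1 to 1.40 in JNK_KO replicate 3, and read counts were not used, so no counting interval could be given. The targeted gene Mapk8 was at 23.9 and 19.1 FPKM in the JNK_WT lines and at 4.30 and 4.27 FPKM in the JNK_KO lines. Mapk9 was at 29.7 and 24.3 against 12.6 and 8.66 FPKM. Trp53, deleted in both groups, was at 1.55 to 5.72 FPKM over the 4 lines. These values cover whole genes, including exons that the deletions leave. Of the 5 luminal epithelial markers, Krt8, Krt18, Epcam and Cdh1 were at 58.4 FPKM or more in every library and Krt19 was at 11.1 to 66.6 FPKM. Of 7 macrophage and leukocyte markers, 5 were below 1 FPKM in all libraries, among them Ptprc (CD45) at no more than 0.0134 FPKM and Emr1 (F4/80), listed at 0 in 3 libraries. The exceptions were Csf1r, at 0.312 to 1.82 FPKM, and Cd14, at 11.9 to 233 FPKM. All 3 endothelial markers were below 1 FPKM.

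Of the 5 lysosomal membrane and protease members, 3 were higher and 1 was lower in both JNK_KO lines than in both JNK_WT lines, where groups did not overlap for 34.99% of all genes tested in either direction. Whether these members differed from the others was not tested. Lamp1, Lamp2, Ctsb, Uvrag, Atg3, Optn and Foxo3 were higher in both JNK_KO lines than in both JNK_WT lines, and Ctsl, Ulk2 and Atg5 were lower in both. These were 7 of 34 members (20.6%), where 18.3% of all genes tested were higher without overlap, and 3 of 34 (8.82%), where 16.7% were lower without overlap. No member was called (0 of 34) by limma at an adjusted p-value under 0.05 with an absolute log2 difference over 0.75. Among all genes tested 0% were called. The smallest adjusted p-value of a member was 0.488. At an unadjusted p-value under 0.05 there were 5 members (14.7%), against 7.63% of all genes tested. The log2 difference was over 0.75 in size for 3 members on the higher side (8.82%) and for 1 on the lower side (2.94%), against 9.25% and 6.43% of all genes. The median log2 difference (JNK_KO minus JNK_WT) was 0.06 over the members and 0.01 over all genes tested. Without single lines the member median was -0.07 (without JNK_KO replicate 3), 0.006 (without JNK_WT replicate 1), 0.22 (without JNK_WT replicate 2) and 0.25 (without JNK_KO replicate 1).

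**Figure D1:**
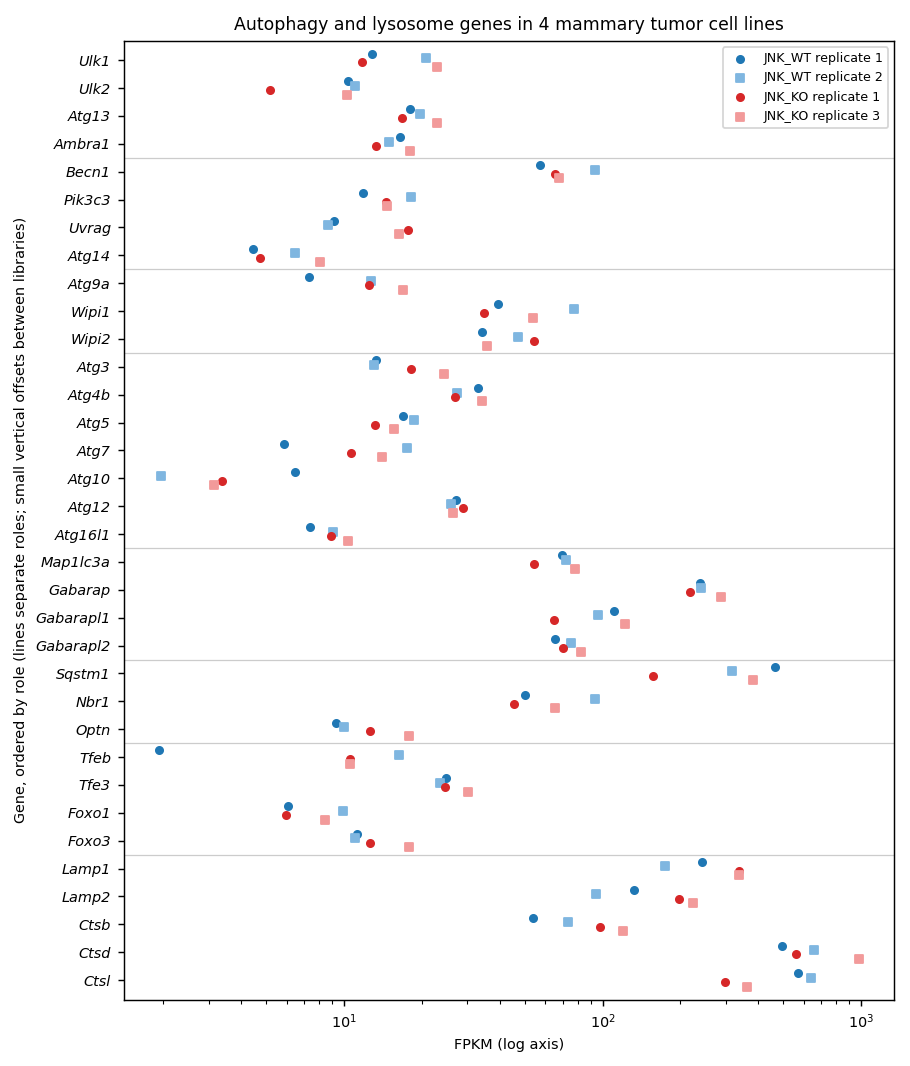
Level of each of the 34 genes in each library, in FPKM on a log axis, with 1 point per library (circles, replicate 1 of either genotype; squares, JNK_WT replicate 2 and JNK_KO replicate 3). Red points stand to the right of blue points for Lamp1, Lamp2, Ctsb, Uvrag and Atg3 and to the left for Ctsl, and for most other genes the colors are mixed.

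**Figure D2:**
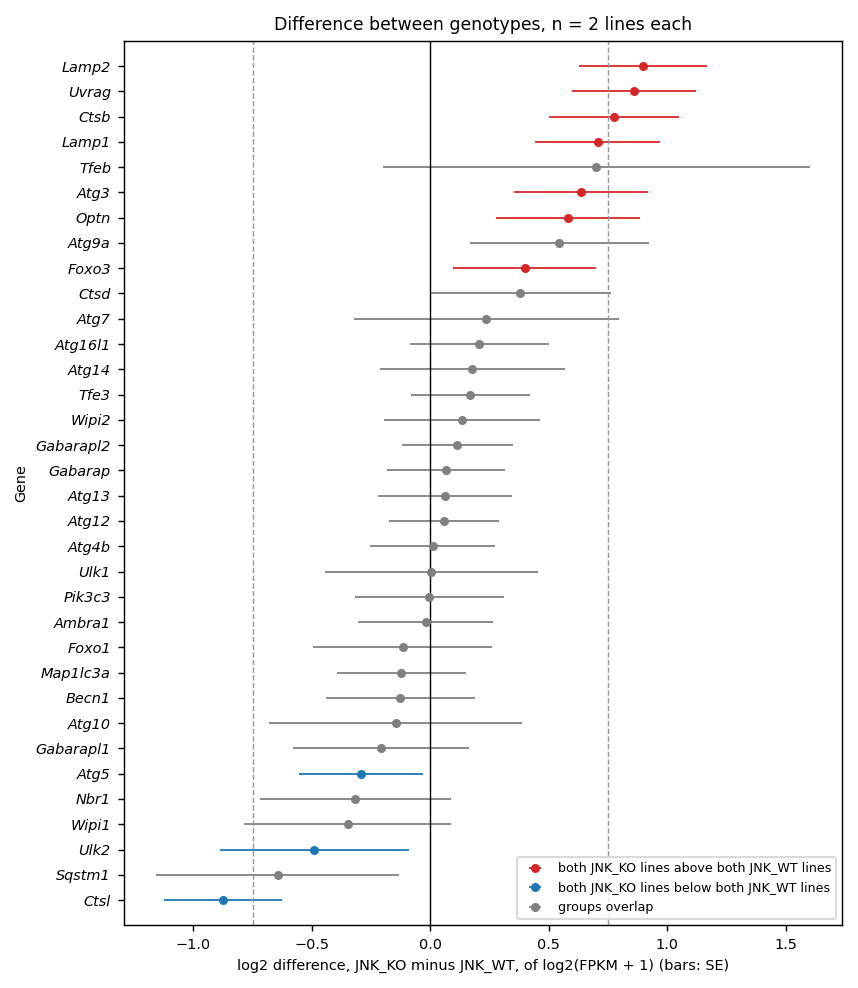
Log2 difference between genotypes of log2(FPKM + 1) for each gene, with the standard error from limma and n = 2 lines per genotype. The dashed lines mark differences of 0.75 in either direction, which Lamp2, Uvrag and Ctsb pass on the right and Ctsl on the left.

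Lamp1 and Lamp2 encode the most abundant glycoproteins of the lysosomal membrane. Lamp1 (chr8:13159161-13175338, plus strand) was at 242 and 175 FPKM in the JNK_WT lines and at 337 and 336 FPKM in the JNK_KO lines, each pair in the order of the replicate numbers here and below. The JNK_KO lines were nearly equal and stood above both JNK_WT lines, with a log2 difference of 0.71 (SE 0.26, limma adjusted p-value 0.653). Lamp2 (chrX:38401357-38456454, minus strand) was at 133 and 94.7 FPKM in the JNK_WT lines and at 197 and 224 FPKM in the JNK_KO lines. Its mean was 1.85 times that of JNK_WT lines, and the log2 difference of 0.90 (SE 0.27, limma adjusted p-value 0.519) was the largest among the members. Leaving out any single line kept the difference between 0.66 and 1.14 for Lamp2 and between 0.47 and 0.94 for Lamp1.

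The cathepsins among the members, proteases of the lysosomal lumen, differed in direction, and further cathepsins are given below with the other lysosomal enzymes. Ctsb (chr14:63122462-63145923, plus strand), a cysteine protease, was at 53.6 and 73.6 FPKM in JNK_WT lines and at 97.6 and 120 FPKM in JNK_KO lines, a log2 difference of 0.78 (SE 0.27, limma adjusted p-value 0.625). Ctsl (chr13:64359337-64370890, minus strand), a related cysteine protease, was at 568 and 642 FPKM in JNK_WT lines and at 298 and 363 FPKM in JNK_KO lines. The JNK_WT mean was 1.83 times the JNK_KO mean, with a log2 difference of -0.87 (SE 0.25, limma adjusted p-value 0.488) that stayed between -1.02 and -0.73 when single lines were left out. Ctsb and Ctsl thus lay on opposite sides of 0, each without overlap of the groups. Ctsd, an abundant aspartic protease, was at 495 and 657 FPKM in JNK_WT lines and at 560 and 984 FPKM in JNK_KO lines, and its groups overlapped. The 95% interval of the Ctsd log2 difference ran from -0.64 to 1.40.

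Some of these genes share exons with other annotated genes, and the libraries were not stated to keep strand. In the annotation 26.8% of Ctsl exon bases overlap the antisense gene Gm47123, 12.8% of Ctsb bases overlap Fdft1 on the other strand, and 9.3% of Lamp1 bases overlap Grtp1 on the other strand. For Ctsd, 34.4% overlap the gene model Gm49369 on the same strand. Among members described further on, such overlap covers 43.9% of Becn1 exon bases (Cntd1), 28.3% for Gabarapl1 (1700101I11Rik) and 17.3% for Sqstm1 (Mrnip), all on the other strand, and 31.8% for Atg9a (Gm29253, same strand). The part of such sharing in the values was not tested.

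The promoters of lysosomal genes often hold the E-box CACGTG, the core of the element that Tfeb and Tfe3 bind, so these letters were searched in RefSeq promoters of build GRCm38.p6, from 250 bases before to 50 bases after the start. The motif reads the same on both strands. Promoters were found for 28 members, of which 7 (25%) held it, against 8.09% of all 27025 genes in the promoter table and 12.0% of the 8946 tested genes found there. Among the members without overlap these were Lamp1, Ctsl, Atg3 and Atg5, and among the others Ctsd, Atg7 and Atg14. The stretch around each match is shown 5′ to 3′ on the strand of the gene, with the E-box in capitals, because Lamp1, Ctsd and Ctsl share the motif and differ in direction or overlap.
Lamp1: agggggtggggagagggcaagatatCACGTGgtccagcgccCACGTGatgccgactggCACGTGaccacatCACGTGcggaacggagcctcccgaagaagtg
Atg3: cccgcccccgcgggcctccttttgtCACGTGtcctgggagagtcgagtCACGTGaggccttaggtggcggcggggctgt
Ctsd, nearer match: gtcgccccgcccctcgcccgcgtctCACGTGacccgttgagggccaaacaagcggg
Ctsd, farther match: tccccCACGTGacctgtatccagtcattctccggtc
Ctsl: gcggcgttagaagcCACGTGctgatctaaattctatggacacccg
Atg5: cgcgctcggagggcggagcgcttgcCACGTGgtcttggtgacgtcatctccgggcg
Atg7: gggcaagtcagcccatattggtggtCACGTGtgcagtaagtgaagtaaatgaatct
Atg14: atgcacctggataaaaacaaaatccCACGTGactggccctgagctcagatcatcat

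The Lamp1 stretch (chr8:13159075-13159176, plus strand) held 4 copies between 61 and 15 bases before the start. Atg3 (chr16:45158710-45158788, plus strand) held 2 copies, 94 and 71 bases before the start, and Ctsd held 2 copies, at 98 bases (chr7:142387895-142387950, minus strand) and 245 bases (chr7:142388042-142388077) before it. Ctsl (chr13:64370726-64370770, minus strand), which was lower in JNK_KO lines, held 1 copy at 236 bases. Starts are those of the RefSeq promoter table, and for Ctsl, Ctsd, Atg3, Atg7 and Atg14 the start lies inside the gene span of the GENCODE annotation. The stretches of Ctsl, Atg7 and Atg14 and the nearer stretch of Ctsd lie wholly within that span. Atg5 (chr10:44268300-44268355, plus strand) and Atg7 (chr6:114670939-114670994, plus strand) held 1 copy each at 14 and 132 bases, and Atg14 (chr14:47568405-47568460, minus strand) held 1 that began 1 base before the start. The longer letters TCACGTGA were in the promoters of Atg3 and Ctsd (7.14% of the 28 members, against 1.12% of all genes in the table and 2.34% of the tested genes). The letters TGTTTAC, a form of the site that FoxO proteins bind, were on neither strand of any member's promoter (0 of 28, against 4.05% of all genes and 3.06% of the tested genes). Lamp2, Uvrag, Optn and Foxo3, which were higher without overlap, had promoters without the E-box letters in this window, and none was given for Ctsb.

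Among genes that start autophagy, Ulk1, which encodes the principal initiating kinase, was at 12.8 and 20.8 FPKM in JNK_WT lines and at 11.7 and 22.8 FPKM in JNK_KO lines. Lines of one genotype thus differed by more than the genotypes did. The related kinase gene Ulk2 (chr11:61775649-61855073, minus strand) was at 10.4 and 11.0 FPKM in JNK_WT lines and at 5.16 and 10.3 FPKM in JNK_KO lines. The groups did not overlap, with a log2 difference of -0.49 (SE 0.40, limma adjusted p-value 0.941), but without JNK_KO replicate 1 the difference was -0.05. Atg13, the scaffold of the ULK complex, lay between 16.8 and 23.0 FPKM in all lines. Ambra1, which links the ULK and Becn1 complexes, lay between 13.3 and 17.9 FPKM, and both overlapped between groups.

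In the lipid kinase complexes the groups did not overlap for Uvrag. Uvrag (chr7:98885021-99141141, minus strand), a subunit that joins Becn1 and Pik3c3 in endosome and autophagosome maturation, was at 9.16 and 8.65 FPKM in JNK_WT lines and at 17.6 and 16.4 FPKM in JNK_KO lines. Lines of the same genotype differed by 1.06 and 1.07 times, and the JNK_KO mean was 1.91 times the JNK_WT mean. The log2 difference was 0.86 (SE 0.26, limma adjusted p-value 0.521), and 0.81 to 0.91 when single lines were left out. In the annotation 17.6% of Uvrag exon bases overlap the antisense gene Gm45187. Becn1, the core of these complexes, was at 57.0 and 93.4 FPKM in JNK_WT lines and at 65.6 and 68.0 FPKM in JNK_KO lines. The catalytic subunit Pik3c3 was at 11.9 and 18.1 FPKM in JNK_WT lines and at 14.6 and 14.7 FPKM in JNK_KO lines. For both genes both JNK_KO lines lay between the JNK_WT lines. Atg14, the subunit that directs the complex to the forming autophagosome, ranged from 4.45 to 8.04 FPKM with overlap. Of these 4 genes, groups were apart only for Uvrag (25%), where groups did not overlap for 34.99% of all genes tested.

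The genes for membrane supply and recruitment overlapped between genotypes. Atg9a, a membrane protein whose vesicles seed the autophagosome, was at 7.32 and 12.7 FPKM in JNK_WT lines and at 12.5 and 16.9 FPKM in JNK_KO lines. Its log2 difference was 0.54 (SE 0.38, limma adjusted p-value 0.909) and 0.19 without JNK_WT replicate 1. Wipi1 and Wipi2 encode lipid-binding proteins, and that of Wipi2 recruits the conjugation machinery. Wipi1 was at 39.3 and 77.9 FPKM in JNK_WT lines and at 34.9 and 53.7 FPKM in JNK_KO lines, and Wipi2 ranged from 34.1 to 54.1 FPKM.

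The groups overlapped for the conjugation genes except Atg3 and Atg5 (2 of 7, 28.6%, against 34.99% of all genes tested without overlap). Atg3 (chr16:45158785-45188538, plus strand), the E2-like enzyme that passes ATG8 proteins to the membrane lipid, was at 13.3 and 13.1 FPKM in JNK_WT lines and at 18.1 and 24.5 FPKM in JNK_KO lines. Its log2 difference was 0.64 (SE 0.28, limma adjusted p-value 0.737), and leaving out single lines gave 0.43 to 0.84. Atg5, which is joined to the ubiquitin-like Atg12, was at 17.0 and 18.6 FPKM in JNK_WT lines and at 13.2 and 15.6 FPKM in JNK_KO lines. Atg5 thus lay lower in JNK_KO lines while its conjugation partner Atg12 held a narrow range, from 26.0 to 28.9 FPKM. Atg16l1, which completes the complex with Atg5 and Atg12, ranged from 7.39 to 10.4 FPKM, and Atg4b, the protease that trims ATG8 proteins, ranged from 26.9 to 34.1 FPKM. The E1-like Atg7 and the E2-like Atg10 differed most between the JNK_WT lines. Atg7 was at 5.85 and 17.5 FPKM in JNK_WT lines and at 10.6 and 14.1 FPKM in JNK_KO lines. Atg10 was at 6.48 and 1.96 FPKM in JNK_WT lines and at 3.37 and 3.14 FPKM in JNK_KO lines. JNK_WT replicate 1 was thus the lowest line for Atg7 and the highest for Atg10.

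The ATG8 genes, whose products coat the autophagosome, overlapped between genotypes. Gabarap was the most abundant of them, at 238 and 239 FPKM in JNK_WT lines and at 218 and 287 FPKM in JNK_KO lines. Map1lc3a, an LC3 gene, was at 70.0 and 72.0 FPKM against 54.2 and 78.2 FPKM, and Gabarapl2 was at 65.2 and 75.6 FPKM against 70.4 and 82.2 FPKM. Gabarapl1 was at 111 and 96.2 FPKM in JNK_WT lines and at 64.9 and 122 FPKM in JNK_KO lines. In each of these 4 genes JNK_KO replicate 3 was the highest line. The 95% intervals of the log2 differences ran from -0.60 to 0.73 for Gabarap and from -1.20 to 0.78 for Gabarapl1, so differences within these bounds could not be resolved. ATG8 genes are close relatives and Cufflinks can divide shared reads between them.

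Cargo receptors tie ubiquitinated material to ATG8 proteins, and their levels followed no common direction. Sqstm1 (p62) was at 463 and 318 FPKM in JNK_WT lines and at 157 and 382 FPKM in JNK_KO lines. JNK_KO replicate 1 alone was low, and without it the log2 difference of -0.65 (SE 0.51, limma adjusted p-value 0.936) was -0.004. Nbr1 was at 49.96 and 93.4 FPKM in JNK_WT lines and at 45.5 and 65.7 FPKM in JNK_KO lines, with overlap. Optn (chr2:5020642-5064051, minus strand), a receptor that also serves mitophagy, was at 9.33 and 10.0 FPKM in JNK_WT lines and at 12.6 and 17.8 FPKM in JNK_KO lines, without overlap. Its log2 difference was 0.58 (SE 0.31, limma adjusted p-value 0.819) and 0.35 without JNK_KO replicate 3.

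Of the transcription factors, Tfeb varied most of all 34 members. It was at 1.92 and 16.3 FPKM in JNK_WT lines, an 8.49-fold gap, while both JNK_KO lines were at 10.5 and 10.6 FPKM. The log2 difference was 0.70 (SE 0.90, limma adjusted p-value 0.991) and reversed to -0.58 without JNK_WT replicate 1. Its relative Tfe3 was steady, at 24.7 and 23.5 FPKM against 24.5 and 30.2 FPKM. Foxo3 was at 11.2 and 11.0 FPKM in JNK_WT lines and at 12.6 and 17.8 FPKM in JNK_KO lines, which did not overlap as deposited but did after TPM scaling. Its log2 difference was 0.40 (SE 0.30, limma adjusted p-value 0.933). Foxo1 was at 6.06 and 9.90 FPKM in JNK_WT lines and at 5.95 and 8.42 FPKM in JNK_KO lines, with overlap. Bnip3, a mitophagy receptor and a known FoxO target, was at 13.5 and 14.9 FPKM against 16.1 and 13.9 FPKM, also with overlap.

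In most members, as in most genes tested, the lines of one genotype lay farther apart than the genotypes did. In 26 of 34 members (76.5%) the larger gap between same-genotype lines exceeded the difference of the group means on the log2 scale, against 76.4% of all genes tested. The larger gap of single lines is set against a difference of means, so a high share does not single out the members. The median gap over members was 0.34 between JNK_WT lines and 0.40 between JNK_KO lines, against 0.43 and 0.33 over all genes tested. The median absolute difference between genotypes was 0.22 over members and 0.27 over all genes tested. JNK_KO replicate 3 was above JNK_KO replicate 1 in 29 of 34 members (85.3%), although in 51.2% of all genes tested. It was the highest of the 4 lines in 18 members and the lowest in 0. JNK_KO replicate 1 was the lowest line in 14 members. Shares of the highest and lowest line over all genes tested were not computed. JNK_WT replicate 2 was above JNK_WT replicate 1 in 22 of 34 members (64.7%), against 49.9% of all genes tested. The sum of the 4 basal epithelial markers, mostly Krt14 in all but JNK_WT replicate 1, moved with these lines. It came to 349 FPKM in JNK_KO replicate 3 and 29.65 FPKM in JNK_KO replicate 1, and to 530 FPKM and 14.8 FPKM in JNK_WT replicates 2 and 1. Krt14 alone was at 313 and 26.7 FPKM in JNK_KO replicates 3 and 1, while Krt5 was below 1 FPKM in both. In JNK_WT replicate 2 Krt14 was at 443, Krt5 at 61.9 and Trp63 at 21.9 FPKM. In JNK_WT replicate 1 Krt14 was at 7.34 FPKM, and Krt5 and Trp63 were below 1 FPKM. Acta2 was lower in JNK_WT replicate 2 (3.19 FPKM) than in replicate 1 (7.36 FPKM). The part of these markers in the difference between the JNK_KO lines was not tested.

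**Figure D3:**
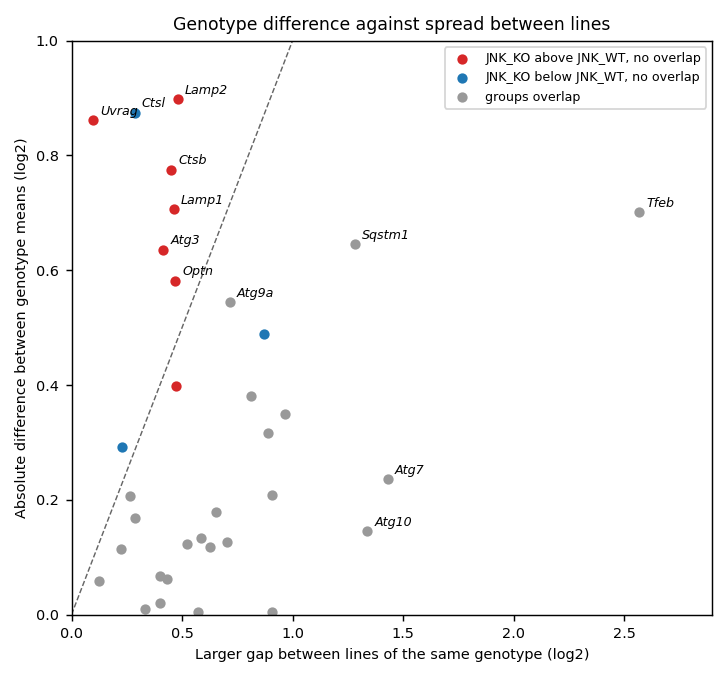
Absolute log2 difference between genotype means against the larger log2 gap between lines of the same genotype, with 1 point per member. Points above the dashed line of equality, among them Uvrag, Ctsl, Lamp2, Ctsb and Lamp1, differed more between genotypes than within, and Tfeb lies far to the right with its JNK_WT lines widely apart.

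Markers of other lineages were set beside the lysosomal values, since fewer cells of a type and less RNA per cell cannot be told apart in bulk RNA. The 5 luminal markers summed to 3059 and 2072 FPKM in JNK_WT lines and to 895 and 1744 FPKM in JNK_KO lines, and 2 of them (Krt8 and Epcam) were lower without overlap. The 6 fibroblast markers summed to 11.5 and 1.55 FPKM against 83.6 and 170 FPKM. Dcn (decorin) made up most of the sum in JNK_KO lines, at 79.7 and 162 FPKM. In JNK_WT replicate 1 the sum was mostly Col1a2, at 10.3 FPKM. Of the 3 that passed the filter, Dcn and Pdgfrb were higher in JNK_KO lines without overlap, and the groups overlapped for Col1a2. Pdgfrb was at 0.0404 and 0.194 FPKM against 2.17 and 2.99 FPKM. Col1a1 was at or below 0.527 FPKM in every line, and Thy1 and Col3a1 were at no more than 1.33 FPKM. The macrophage and leukocyte sum, nearly all Cd14, was 14.01 and 234 FPKM against 126 and 141 FPKM. The part of these marker lists in the lysosomal values was not tested.

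Further genes of the pathway were then examined in 6 lists. Of 136 genes found, 133 passed the filter and 0 were called by limma, while 14 (10.5%) had an unadjusted p-value under 0.05, against the 7.63% of all genes tested. Groups were higher without overlap for 34 (25.6%) and lower for 16 (12.0%), beside the 18.3% and 16.7% of all genes tested given above. Lysosomal enzymes leaned higher, with 14 of 39 higher and 3 lower without overlap and a median log2 difference of 0.28. The vacuolar ATPase, the proton pump of the lysosome, had a median of 0.27, with 4 of 16 subunit genes higher and 2 lower. Other lysosomal membrane and sorting genes had 7 of 22 higher and 3 lower (median 0.09). Other autophagy machinery had 4 of 22 higher and 2 lower (median 0.06), mTORC1 and TFEB regulators had 5 of 22 higher and 2 lower (median 0.01), and other cargo receptors had 0 of 12 higher and 4 lower (median -0.12). Under TPM scaling the median of all genes was -0.07, so the sign of list medians this close to 0 rests on the scaling.

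Among the enzymes, Lipa, the lysosomal acid lipase, was at 8.96 and 3.54 FPKM in JNK_WT lines and at 20.7 and 20.3 FPKM in JNK_KO lines, a log2 difference of 1.68 (SE 0.46, limma adjusted p-value 0.475). The cysteine protease Ctss was at 0.182 and 0.0278 FPKM against 1.20 and 2.51 FPKM, all low levels. Of the other cathepsin genes in this list, Ctsk did not pass the filter and the groups overlapped for Ctsh and Ctso. Ctsa, Ctsc, Ctsf and Ctsz were higher in JNK_KO lines without overlap. Naglu, which degrades heparan sulfate, stood the other way, at 33.5 and 32.5 FPKM against 11.9 and 15.7 FPKM (log2 difference -1.21, SE 0.27, limma adjusted p-value 0.378). The acid phosphatase Acp2 was at 22.1 and 19.6 FPKM against 15.3 and 17.0 FPKM. Of the genes that sort enzymes to the lysosome, Gnptab, which makes the mannose 6-phosphate tag, was at 13.96 and 9.65 FPKM in JNK_WT lines and at 27.3 and 19.99 FPKM in JNK_KO lines. A receptor for that tag, Igf2r, was at 19.7 and 31.6 FPKM against 12.9 and 13.4 FPKM. Another receptor for the tag, M6pr, was at 107 and 78.8 FPKM against 53.8 and 55.7 FPKM. Gnptab and these receptor genes thus lay on opposite sides. The groups overlapped for the related gene Gnptg, at 5.92 and 12.8 FPKM against 7.56 and 6.91 FPKM. The cathepsin inhibitor Cst3 was at 137 and 91.2 FPKM against 228 and 172 FPKM, and the channel gene Tpcn1 was at 25.7 and 18.5 FPKM against 8.89 and 10.1 FPKM.

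On the log2(FPKM + 1) scale the largest difference among the tested genes of the 6 lists was that of Rragd, a Rag GTPase that signals amino acid supply to mTORC1 at the lysosome. Rragd was at 1.25 and 0.932 FPKM in JNK_WT lines and at 21.0 and 9.08 FPKM in JNK_KO lines, a log2 difference of 2.84 (SE 0.48, limma adjusted p-value 0.256). Its JNK_KO mean was 13.8 times its JNK_WT mean, a ratio below the 17.7 of the low-level Ctss. Its partner Lamtor3, of the Ragulator complex, was at 15.8 and 19.4 FPKM against 22.1 and 25.9 FPKM. Of the regulators that were lower, Nprl3 was at 19.7 and 21.4 FPKM against 13.9 and 15.999 FPKM, and Rheb, the GTPase that activates mTORC1, was at 183 and 217 FPKM against 176 and 164 FPKM. In the autophagy machinery the ATG8 protease gene Atg4a was at 3.004 and 3.29 FPKM in JNK_WT lines and at 6.08 and 6.64 FPKM in JNK_KO lines. Nrbf2, a partner of the Becn1 complex, was at 8.35 and 9.96 FPKM against 10.9 and 20.4 FPKM. Tmem41b, needed for autophagosome formation, was at 43.8 and 33.7 FPKM against 25.9 and 23.9 FPKM.

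The named vacuolar ATPase genes lay on both sides of 0. The accessory subunit genes Atp6ap2 and Atp6ap1 were higher in JNK_KO lines, at 57.2 and 62.0 against 83.6 and 119 FPKM and at 94.0 and 77.9 against 111 and 145 FPKM. Atp6v1f and Atp6v1e1, of the catalytic sector, were lower, at 229 and 198 against 111 and 141 FPKM and at 148 and 141 against 71.7 and 116 FPKM. Among receptors, Phb2, an inner mitochondrial membrane receptor for mitophagy, was at 570 and 450 FPKM against 234 and 240 FPKM (log2 difference -1.09, SE 0.25, limma adjusted p-value 0.389). Tax1bp1, a ubiquitin-binding receptor, was at 158 and 188 FPKM against 78.0 and 96.8 FPKM (log2 difference -0.98, SE 0.25, limma adjusted p-value 0.440).

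Several of these lower genes lie on chromosome 6, whose genes as a whole were lower in the JNK_KO lines than in the JNK_WT lines. From exome sequencing, the paper reports amplification of that chromosome in JNK_WT tumor cells and in some of the JNK_KO tumor cells. The difference may thus be read from either group, and the part of copy number in these values was not tested. Phb2, Tax1bp1, Atp6v1f, Atp6v1e1, the late endosome GTPase gene Rab7 and the mannose 6-phosphate receptor gene M6pr are on that chromosome, and they were the 6 of 8 listed genes there that were lower without overlap, with 0 higher. Rab7 was at 215 and 270 FPKM in JNK_WT lines and at 182 and 190 FPKM in JNK_KO lines. On chromosome 6, 353 of all 628 tested genes (56.2%) were lower without overlap and the median log2 difference was -0.59, while elsewhere 14.6% were lower and the median was 0.02. Leaving that chromosome out, a count added after the data were seen, 34 of 125 listed genes (27.2%) were higher and 10 (8%) lower without overlap, where 18.9% and 14.6% of all genes tested elsewhere were higher and lower. Among the members, Atg7 and Gabarapl1 lie on chromosome 6, both with overlapping groups, so the 7 higher and 3 lower members were all located elsewhere. Among members and listed genes, Lamp2, Atg4a, Atp6ap1, Atp6ap2, Gla and Ids lie on the X chromosome and were higher without overlap. Tfe3, Wdr45 and Fundc1 also lie there, with overlapping groups. The share over all genes of the X chromosome was not computed. The part of either chromosome in the values of its genes was not tested.

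**Figure D4:**
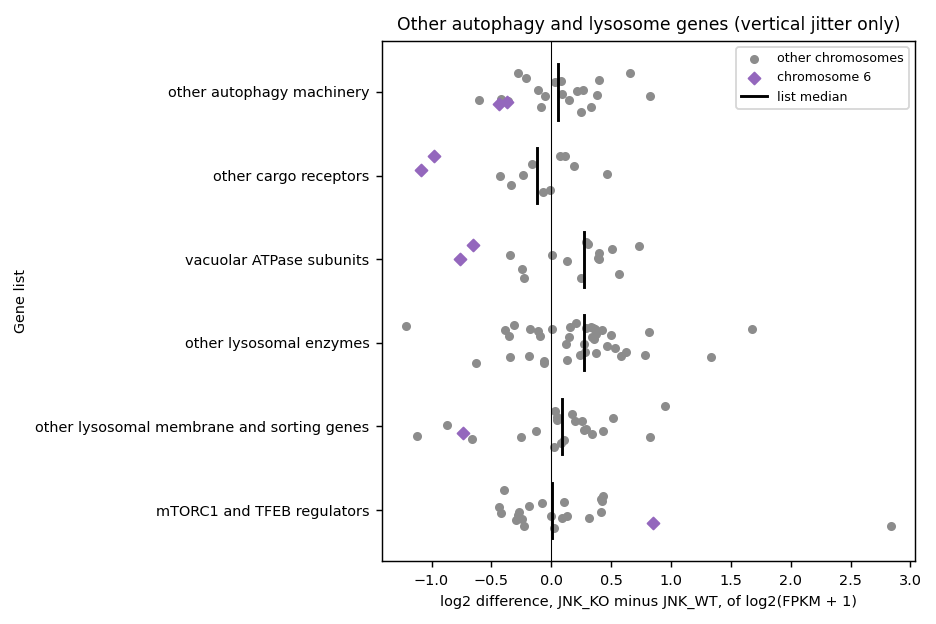
Log2 difference between genotypes of log2(FPKM + 1) for the 133 tested genes of the 6 further lists, with 1 point per gene, purple diamonds for chromosome 6 and black bars for list medians. The diamonds lie left of 0 in all lists that hold them except the mTORC1 and TFEB regulators, where Mitf lies at 0.85 with overlapping groups, and the point at 2.84 is Rragd.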

How the data were processed

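RNA from 4 tumor cell lines was sequenced by the study on single-end reads. Per the study's methods, the authors trimmed reads with Trimmomatic, aligned them to mm10 with TopHat2 2.0.14 and Bowtie2, and deposited FPKM estimated by Cufflinks 2.2.1, with 1 value per gene and library and replicates not pooled. The study describes sampling reads with seqtk to a like number per library for a comparison across more groups than these, and does not tie that step to this table. The annotation used is not given in the sources used here. The table held 38741 rows. A total of 27 rows with symbols turned into dates and 1 with no value were left out.

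Genes that reached 1 FPKM in 2 or more libraries were tested on log2(FPKM + 1), a scale that understates the change of low genes, with limma 3.58.1 in R 4.3.3 (intensity trend, two-sided, Benjamini-Hochberg adjustment over all genes tested). The thresholds were those of the study, whose own test needs alignments. The fit was tested on simulated data. With 2 lines against 2, a permutation test cannot give a p-value below 0.333. FPKM hold no read counts, so no count model was fitted. "Without overlap" means that both lines of one genotype lay above both of the other.

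Members, lists and rules were chosen with earlier results of these data known. Full statistics were given for members without overlap and with an absolute log2 difference over 0.4. Sqstm1, Tfeb, Atg9a, Foxo3 and Atg5, and values of genes such as Bnip3, M6pr and Gnptg, were added after their values were seen. From each further list the 2 genes with the largest difference in each direction without overlap were named. The remaining cathepsin genes of the enzyme list were named after their values were seen. Positions came from GENCODE M21 (GRCm38, the assembly of mm10) by symbol, with older symbols matched through RefSeq synonyms, and promoters from RefSeq. Figures were drawn with matplotlib 3.10.9.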

Additional observations from a re-analysis of the deposited data

How the results depend on the processing

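No paired analysis was possible because replicate number 1 is the sole number found in both genotypes, and the labels tie it to no common litter or day. Alternatives were other pseudocounts (0.1 and 0.5), filters (none, or a mean of at least 5 FPKM), scalings (quantile, upper quartile, TPM), variance models, an adjusted p-value threshold of 0.1 and the 4 fits without 1 line. The count of members called was 0 under all of them, while 0 to 25 of all genes were called, and the smallest adjusted p-value of a member was 0.316, for Tfeb without JNK_WT replicate 2. The 5 members with an unadjusted p-value under 0.05 became 2 under TPM scaling and 3 without the intensity trend, and 0 to 3 when 1 line was left out, with 0 without JNK_KO replicate 1, 1 without JNK_KO replicate 3, 3 without JNK_WT replicate 1 and 2 without JNK_WT replicate 2. Fits on 3 lines have fewer residual degrees of freedom. The number of members over 0.75 was 4, and 5 to 8 when 1 line was left out, the 8 being without JNK_WT replicate 2. Tfeb reversed without JNK_WT replicate 1 (-0.58) and reached 1.98 without JNK_WT replicate 2. The other 10 members followed through the alternatives kept their direction in all of them. For 8 of these, picked because their groups did not overlap, leaving out 1 line could not reverse the direction. Without JNK_KO replicate 1 the log2 difference was -0.05 for Ulk2 and -0.004 for Sqstm1. TPM scaling moved the median of all genes to -0.07 and that of the members to -0.02. The FPKM do not record the reads of each library, and 2 lines per genotype limit every comparison.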

Other observations

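The MiT family of transcription factors holds 2 further genes beside Tfeb and Tfe3. Mitf was at 1.32 and 3.33 FPKM in JNK_WT lines and at 1.39 and 12.7 FPKM in JNK_KO lines, so JNK_KO replicate 3 alone was high. Tfec was at 2.11 FPKM in JNK_WT replicate 1, the line with the lowest Tfeb, and was listed at 0 in the other 3 lines, and it did not pass the filter. Over the family, only Tfe3 was at a similar level in all lines.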
